A study of Mus musculus with 8 samples.

Results

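The regions described here are the open-chromatin sites at 5 genes of the TALE homeodomain class, Meis1, Meis2, Meis3, Pbx2 and Pbx3, in mouse acute myeloid leukaemia cells. A site was taken when the summit of a peak lay in the gene, in mm10 coordinates, or within 100 kb of it. The rule used position only, and it found 55 of the 32730 merged regions of the series: 16 at Meis1, 3 at Meis2, 13 at Meis3, 14 at Pbx2 and 9 at Pbx3. A merged region is a stretch where peaks of any of the 8 libraries overlap by at least 1 bp.

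The cells were GFP-positive, carried the MLL-AF9 fusion, and were sorted from the bone marrow of leukaemic mice whose strain the labels give as C57BL/7. All 4 groups shared MLL-AF9 and a TetO-Klf4 construct, from which doxycycline induces the zinc-finger factor Klf4. They differed in time alone: 0h, 6h, 12h and 24h, with 2 ATAC-seq libraries each, and no group lacked the construct. The labels give no doxycycline dose, animal age or number of mice, and do not say whether 0h cells had met the drug or whether libraries of a time came from separate mice. The spread between libraries may therefore be technical.

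MEIS and PBX proteins carry a homeodomain with an extra loop and bind DNA together with each other and with HOX proteins. MEIS1 and HOXA9 form a complex with PBX factors that maintains self-renewal in leukaemias with MLL fusions, where Meis1 is a known target of the fusions. In normal marrow Meis1 is high in stem cells and falls as myeloid cells mature.

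ATAC-seq inserts adapters into open DNA, and each library came as its own list of peaks. Fold enrichment is the pile-up of tags at a peak's summit over the local background, with 1 added to each. It is the authors' value, and it ranks peaks within a list but does not share a scale between libraries. The lists held 14826 to 21903 peaks on the main chromosomes, and the lowest pile-up of any peak was 4 or 5 tags. The 0h pair was the most uneven in depth, as read from the lowest local background: 2.67 tags per kb in the first library and 1.5, the lowest of all 8, in the second. A missing peak says that the site was not detected at the depth of that library, not that it was closed. In bulk libraries, fewer cells with an open site and less opening per cell cannot be told apart. Of 9 myeloid marker genes, 7 to 9 had a peak within 10 kb in each library. Of the markers of other cells, 1 to 3 of 4 B-lineage, 3 to 4 of 4 T-lineage, 2 of 3 erythroid, and 1 to 4 of 5 stromal and endothelial genes had one. The B-lineage numbers went from 3 and 3 (0h) to 2 and 1 (24h), and the stromal and endothelial ones from 4 and 3 to 1 and 2. The T-lineage numbers went from 4 and 3 to 3 and 3, the myeloid ones from 9 and 7 to 8 and 7. The 24h lists were the shortest.

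The sequences before the transcript starts are shown because the members parted most clearly there: a peak covered the start of Meis1 in most libraries, and no peak covered those of Meis2 and Meis3. RefSeq (GRCm38.p6) gave a start for 4 of the 5 genes, and Pbx3 had no entry in the table used. A single start was used per gene. For Meis1, Meis2 and Meis3 it lies inside the annotated gene, whose outer end on that side is at 19019651, 116067537 and 16174012. Sequences before those outer ends were not read, so the windows, motif counts and distances refer to the start used. Each line holds the 250 bases before the start, 5′ to 3′ in the direction of transcription, and capitals mark matches to the motifs searched.
Meis1 (chr11:19018970-19019219, minus strand): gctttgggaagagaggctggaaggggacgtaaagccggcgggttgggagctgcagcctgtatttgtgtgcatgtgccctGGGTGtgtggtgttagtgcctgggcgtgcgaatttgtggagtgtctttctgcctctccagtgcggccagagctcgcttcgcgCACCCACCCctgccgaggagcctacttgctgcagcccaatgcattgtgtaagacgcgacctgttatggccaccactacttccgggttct
Meis2 (chr2:116064620-116064869, minus strand): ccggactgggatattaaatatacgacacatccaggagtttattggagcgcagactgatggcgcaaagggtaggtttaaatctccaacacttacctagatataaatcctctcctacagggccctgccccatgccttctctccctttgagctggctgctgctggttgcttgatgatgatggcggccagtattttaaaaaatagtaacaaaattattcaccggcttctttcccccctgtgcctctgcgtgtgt
Meis3 (chr7:16175145-16175394, plus strand): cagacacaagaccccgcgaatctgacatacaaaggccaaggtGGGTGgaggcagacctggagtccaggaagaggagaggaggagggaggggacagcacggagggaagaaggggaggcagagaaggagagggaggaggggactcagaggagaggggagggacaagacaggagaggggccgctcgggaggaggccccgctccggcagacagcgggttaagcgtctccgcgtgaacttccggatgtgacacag
Pbx2 (chr17:34592009-34592258, plus strand): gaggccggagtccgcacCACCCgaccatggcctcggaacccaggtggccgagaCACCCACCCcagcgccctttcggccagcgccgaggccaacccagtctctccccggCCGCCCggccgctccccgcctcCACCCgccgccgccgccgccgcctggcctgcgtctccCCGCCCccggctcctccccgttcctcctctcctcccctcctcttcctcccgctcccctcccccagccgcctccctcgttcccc

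The 6 motifs were searched on both strands, and matches may overlap. CACCC, the core bound by KLF factors, was found 3 times before Meis1, 4 times before Pbx2, 1 time before Meis3 and 0 times before Meis2. It occurs in 54.2% of the 21263 windows of this length before protein-coding genes, so a match is common. GGGCGG, the GC box of the SP and KLF family, matched 2 times before Pbx2 and before none of the 3 MEIS genes, against 42.6% of all windows. The MEIS core TGACAG (15.4% of windows), the HOX-PBX octamer TGATNNAT (6.68%), the C/EBP motif TTGCNNAA (9.09%) and the PU.1 motif GAGGAAGT (2.23%) had 0 matches in the 4 windows. The GC content was 59.6% before Meis1, 47.6% before Meis2, 63.6% before Meis3 and 77.6% before Pbx2, beside a median of 55.6%.

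Open chromatin at the starts was found at Meis1 and, for Pbx3, beside the end of the gene with the higher coordinate. Taking the window from 250 bases before to 50 after each start, a peak overlapped that of Meis1 in 7 libraries, that of Pbx2 in 1, and those of Meis2 and Meis3 in 0. Over all 21263 such windows, 31.1% had a peak in 8 libraries, 4.39% in 7, 2.72% in 1 and 52.9% in 0. The Pbx2 peak was called in the second 12h library alone, with a fold of 3.64, at the 0.215 percentile of that list. The starts of Meis2 and Meis3 thus stood with the larger part of gene starts in these cells, where no library had a peak. The plot of all regions by library shows these contrasts.

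**Figure D1:**
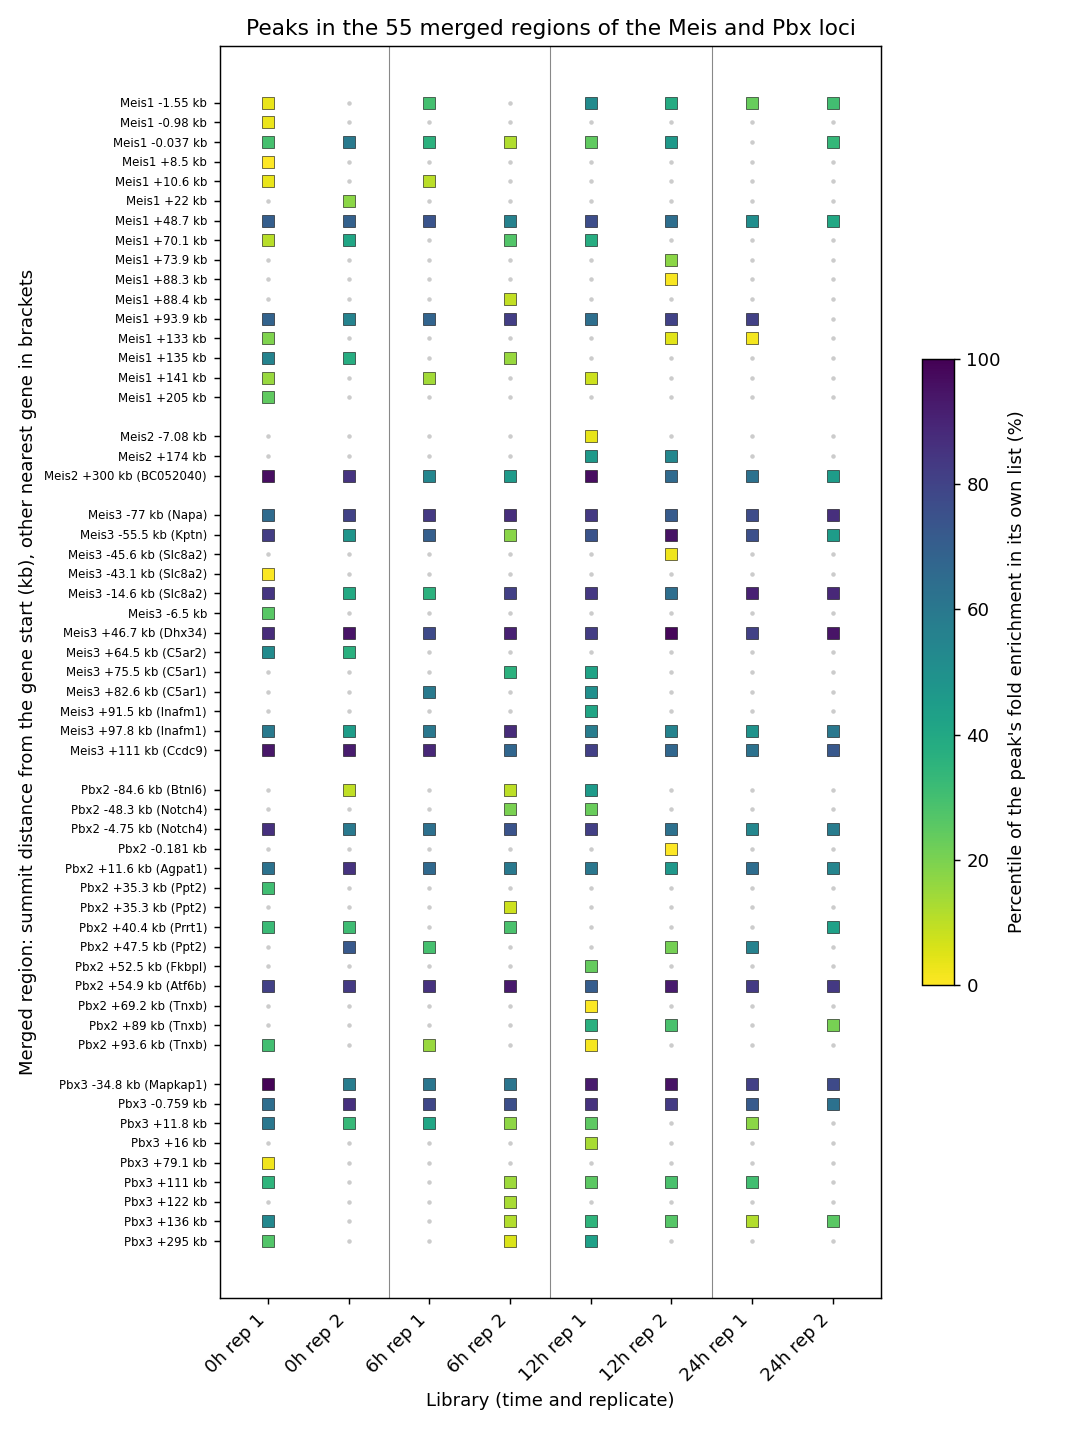
Each row is a merged region at the Meis1, Meis2, Meis3, Pbx2 or Pbx3 locus, named by the distance of its strongest summit from the transcript start (for Pbx3, from the end of the gene with the higher coordinate), and each column a library. Squares are called peaks, coloured by the percentile of fold enrichment within the library's own list, and dots mark no peak: 13 rows are filled in all 8 libraries and 20 in 1.

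Across the 5 loci, 13 of the 55 regions (beside 28.0% of all regions) were called in all 8 libraries, 22 (beside 44.1%) in 2 to 7, and 20 (beside 27.9%) in 1. Of the 13 constant regions, 11 lay nearest to a gene that is not a member, and 9 of these were within 1 kb of an end of that gene. The other 2 were a site inside Meis1 and the site beside Pbx3. Median fold over libraries was highest in the constant regions, with a middle value of 11.1, beside 6.61 for those in 2 to 7 libraries and 4.99 for those in 1. Of the 19 regions inside a member gene, 12 lay in Meis1, 6 in Pbx3, 1 in Meis2, and 0 in Meis3 or Pbx2.

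Meis1 (chromosome 11, 18880428 to 19019651, transcribed towards lower coordinates) encodes the HOXA9 cofactor and held the most regions of the 5. It was the nearest protein-coding gene to all 16 regions at its locus, and no other protein-coding gene lay within 100 kb. Of the 13616 protein-coding genes nearest to at least 1 region, 99.8% had fewer regions than Meis1. The gene is 139 kb long, and these numbers were not set per length. The annotation used gives no exons, so positions are stated as inside or outside the gene.

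The region at the Meis1 start (chromosome 11, 19018635 to 19019526) had its strongest summit at -37 bp from the transcript start. Fold enrichment there was 6.21 and 8.37 (0h), 7.02 and 5.23 (6h), 6.2 and 7.95 (12h) and 7.13 in the second 24h library. The first 24h library had no peak. Summits lay within 71 bp of each other, with pile-ups of 11 to 22 tags. The peak was low to moderate in the lists that called it, between the 12.0 and the 59.1 percentile of fold. The libraries of different times overlapped in fold.

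A neighbouring region at -1.55 kb, where minus means before the start (chromosome 11, 19020420 to 19020730) had peaks in all 4 libraries of the later times, 12h and 24h, and in the first library of each earlier time. The calls had folds of 4.21 (0h), 6.61 (6h), 8.39 and 7.35 (12h) and 6.23 and 6.85 (24h). Its 6 summits lay within 25 bp, the closest agreement of any Meis1 region called in more than 1 library. With 1 of 2 libraries at 0h and at 6h, it was neither gained nor lost by the rule used below. Another site, at -0.98 kb, was called in the first 0h library alone with a fold of 4.11.

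The most constant site of the gene lay 48.7 kb inside it (chromosome 11, 18969949 to 18970416) and had a peak in all 8 libraries. Its fold was 9.79 and 9.34 (0h), 10.7 and 8.56 (6h), 11.0 and 9.58 (12h) and 8.41 and 7.68 (24h). The 24h values were the lowest, and the second 24h value lay below those of the other 7 libraries. Folds of different lists are not on a common scale, and this order is a description only. Its pile-ups ran from 12 to 25 tags.

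The strongest site by rank lay 93.9 kb inside Meis1 (chromosome 11, 18924699 to 18925243) and was called in 7 libraries. Folds were 9.58 and 8.05 (0h), 9.91 and 11.7 (6h), 9.52 and 11.4 (12h) and 11.6 in the first 24h library, with no peak in the second 24h library. The peak of the first 24h library, with a pile-up of 22 tags, stood at the 80.6 percentile of its list. So the 24h libraries disagreed at a site that was prominent in the other 7 lists. Of the 425 regions of the series that were missing in the second 24h library alone, 13 (3.06%) stood higher in the first 24h list. This site was singled out for that comparison after its values were seen. The region at the start, missing in the first 24h library alone, did not stand out in this way: 220 (49.7%) of the 443 such regions stood higher in the second 24h list.

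**Figure D2:**
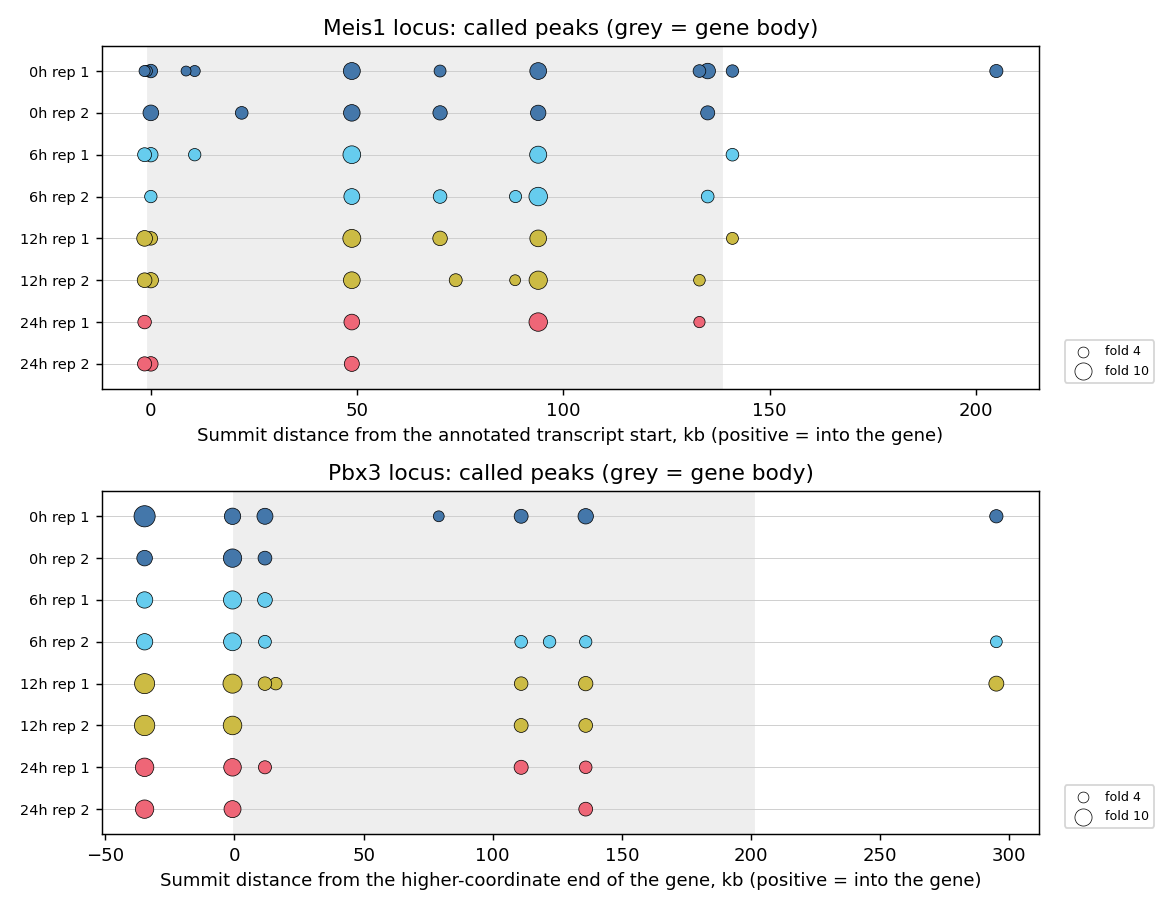
Called peaks of the 8 libraries (rows) along Meis1 and Pbx3, by the distance in kb of the region's strongest summit from the transcript start of Meis1 or from the end of Pbx3 with the higher coordinate, with the gene body in grey and the circle area in proportion to fold enrichment. At Meis1 the libraries have 12 and 6 (0h), 6 and 6 (6h), 6 and 7 (12h) and 4 and 3 (24h) peaks. At Pbx3 the sites at -0.759 and -34.8 kb are filled in every row.

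The Meis1 locus held 2 regions that were lost and 0 that were gained, by the rule that both libraries of 1 time and neither of the other have a peak. Over all regions, 2.34% were lost at 6h, 1.45% at 12h and 4.43% at 24h, and 1.85%, 4.03% and 1.12% were gained, so 1 Meis1 region of 16 lost at 12h and 2 at 24h are too few to read against these shares. A site 135 kb into the gene (chromosome 11, 18883582 to 18884214) had folds of 8.22 and 6.76 at 0h and 5.51 in the second 6h library, and no peak in the other 5 libraries. It was lost at 12h and at 24h. In the first 0h library it stood at the 55.2 percentile with 22 tags, and in the second at the 37.7 percentile with 9 tags. Its 8-library pattern was shared by 89 (0.272%) of all regions.

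A site 70.1 kb into the gene (chromosome 11, 18948742 to 18949236) was lost at 24h only. Its folds were 4.87 and 7.0 at 0h, 6.31 in the second 6h library and 7.2 in the first 12h library, and neither 24h library had a peak. The pile-up was 10 tags in 3 of these libraries and 15 in the other, so the peaks were small throughout. The same 8-library pattern was found in 82 (0.251%) of all regions.

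The other Meis1 regions were weaker and called without agreement between libraries of a time. A site 141 kb from the start, past the far end of the gene and in the noncoding gene 8430419K02Rik, was called in the first library of 0h, 6h and 12h, with folds of 5.27, 5.46 and 4.89. Inside the gene, 1 site was called in 3 libraries of 0h, 12h and 24h with folds of 4.34 to 5.48, and 1 in the first 0h and 6h libraries with folds of 4.19 and 5.21. The remaining 7 regions were called in 1 library each: 3 in the first 0h library, 1 in the second, 1 in the second 6h library and 2 in the second 12h library. The lowest fold of these, 3.37, lay in the first 0h library. Sites at 88.3 and 88.4 kb, called in 1 library each at 12h and 6h, have peaks that do not overlap, although they are close neighbours.

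**Figure D3:**
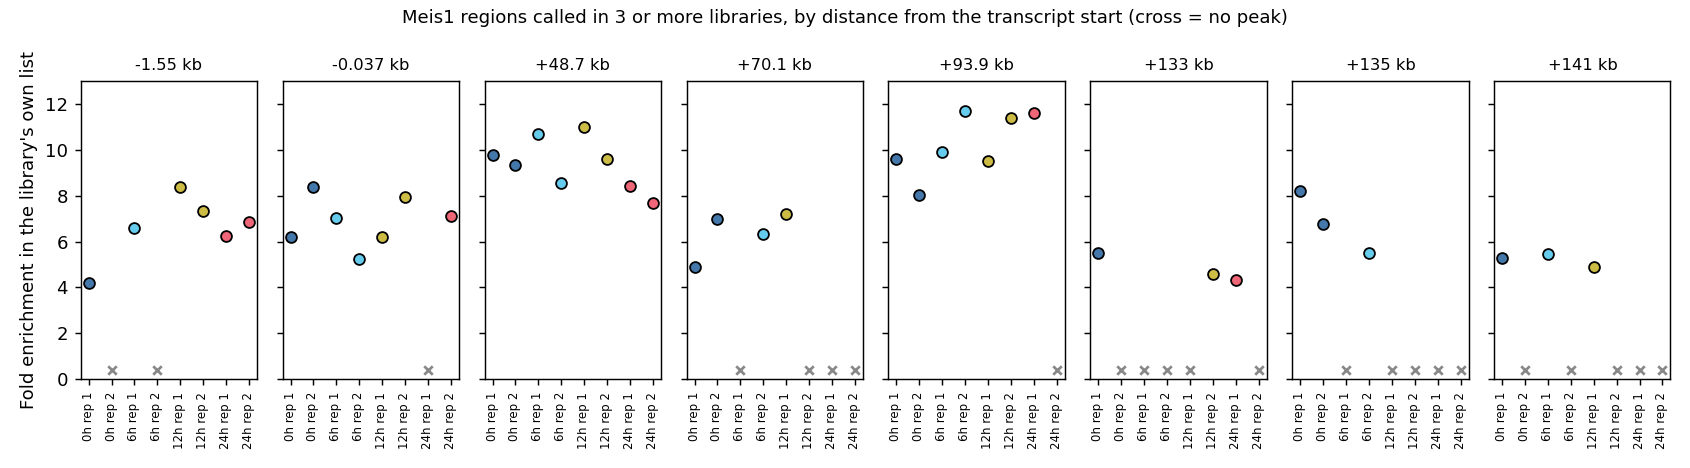
Fold enrichment (each value from the library's own list) at the 8 Meis1 regions called in 3 or more libraries, with 1 panel per region named by its distance in kb from the transcript start and 1 point per library; crosses mark no peak. The panel at 48.7 kb has 8 points between 7.68 and 11.0, and that at 93.9 kb has 7. Those at 70.1, 135 and 141 kb have none at 24h.

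Counted over the locus, the libraries had 12 and 6 (0h), 6 and 6 (6h), 6 and 7 (12h) and 4 and 3 (24h) Meis1 peaks. Both 24h libraries lay below all 6 others, but these were also the shortest lists. Per 10000 peaks of the list the means were 4.68 ± 1.19 (0h), 3.39 ± 0.101 (6h), 3.14 ± 0.572 (12h) and 2.34 ± 0.441 (24h; SD, n = 2). Differences between times made up a share of 0.744 of the sum of squares between libraries (one-sided exact permutation over all divisions of the 8 libraries into pairs, p = 0.0381, adjusted p = 0.167 over 5 loci, smallest possible p 0.0095). The difference thus did not pass after adjustment. A single locus could pass only at the smallest possible p, so not passing says little about whether the times differed. With −log10 q of at least 5 the share was 0.98, and this did not pass either (exact permutation p = 0.019, adjusted p = 0.0952). The order of the times was not kept at equal list length, where the counts were 4 and 6, 4 and 3, 5 and 4, and 3 and 3 (exact permutation p = 0.314), and p was 0.171 without the first 0h library. B-lineage markers with a peak were also fewest at 24h. Stromal and endothelial ones numbered 1 and 2 at 24h, beside 2 in the second 12h library. T-lineage (3 and 3), erythroid (2 and 2) and myeloid (8 and 7) numbers at 24h lay within those of earlier times. The short 24h lists bear on marker numbers too, and the part of other cells in the Meis1 numbers was not tested.

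The number of Meis1 regions called in both libraries of a time was also lowest at 24h. Of the 16 Meis1 regions, both libraries of a time called 5 (0h), 3 (6h), 4 (12h) and 2 (24h), and neither 24h library called 11. The 2 regions called in both 24h libraries were those at 48.7 kb and at -1.55 kb. Of all 32730 regions, 39.9%, 41.5%, 49.6% and 36.1% were called in both libraries in that order of times. Neither 24h library called 14985 of the 32730, and the 11 Meis1 regions are to be read beside that number.

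Pbx3 (chromosome 2, 34171457 to 34372045) encodes a PBX partner of MEIS1 and HOXA9 and had the site with the highest mean percentile of fold, 76.0, among those nearest to a member gene. That region (chromosome 2, 34372140 to 34373320) lies just outside the gene, with its strongest summit 759 bp from the end with the higher coordinate. It was called in all 8 libraries, with folds of 9.12 and 11.5 (0h), 11.2 and 10.9 (6h), 12.4 and 11.8 (12h) and 10.5 and 9.84 (24h). The times overlapped, pile-ups ran from 22 to 50 tags, and the 8 summits lay within 59 bp. The region was 1181 bp wide, beside 468 bp for the constant Meis1 site.

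Inside Pbx3, 3 regions recurred. The site 11.8 kb in (chromosome 2, 34359875 to 34360650) had folds of 8.72 and 6.47 (0h), 7.39 and 5.61 (6h), 6.25 in the first 12h library and 5.83 in the first 24h library. It was missing in the second library of 12h and of 24h. The sites 136 kb in (chromosome 2, 34235541 to 34236004) and 111 kb in (chromosome 2, 34260714 to 34261166) were both missing in the second 0h and the first 6h library. Both were called in the first 0h library (fold 8.06 and 6.63), the second 6h library (5.19 and 5.46) and both 12h libraries (7.0 and 6.43, and 6.27 and 6.6). At 24h the site at 136 kb had folds of 5.38 and 6.5, and the site at 111 kb 6.74 in the first library and no peak in the second. A site past the far end of the gene, in the noncoding gene C230014O12Rik, was called in the first 0h, second 6h and first 12h library alone, with folds of 4.73 to 7.65. None of these Pbx3 regions was gained or lost at any time. The remaining 3 regions inside the gene were called in 1 library each, with folds of 4.02 to 5.35.

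The strongest fold at the Pbx3 locus lay at an end of Mapkap1, which encodes the SIN1 subunit of an mTOR complex, at -34.8 kb from Pbx3 (chromosome 2, 34406684 to 34407134). It was 15.3 and 8.26 (0h), 9.1 and 9.1 (6h), 13.7 and 14.1 (12h) and 11.6 and 11.5 (24h). The 0h libraries spanned the range of all later ones. Peaks at the Pbx3 locus numbered 7 and 3 (0h), 3 and 7 (6h), 7 and 4 (12h) and 5 and 3 (24h). The libraries of a time differed as much as the times did, and the share of times in the sum of squares per 10000 peaks was 0.0132 (one-sided exact permutation p = 0.981, adjusted p = 0.981).

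Meis2 (chromosome 2, 115861264 to 116067537), a developmental regulator of limb, heart and brain, was nearly bare. Its 206 kb held 1 region, 174 kb from the start (chromosome 2, 115890110 to 115890363), which was called in both 12h libraries with folds of 7.87 and 8.54 and in no other library. Each of the 2 peaks had a pile-up of 11 tags, and their summits lay 25 bp apart. This region was gained at 12h and not kept at 24h, a pattern it shared with 404 (1.23%) of all regions. A second site, at -7.08 kb from the start, was called in the first 12h library alone, with a fold of 4.46.

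The constant region in the Meis2 window lay inside BC052040, close to the edge of the window (chromosome 2, 115764926 to 115765292). Its folds were 14.0 and 11.4 (0h), 8.49 and 7.7 (6h), 14.8 and 9.74 (12h) and 9.49 and 8.16 (24h). The Meis2 locus therefore had 1 peak in each library of 0h, 6h and 24h, and 3 and 2 peaks at 12h. The share of times in the sum of squares per 10000 peaks was 0.874 (one-sided exact permutation p = 0.0667, adjusted p = 0.167). The adjusted p was 0.0476 without the second 0h library. The 12h lists were also 2 of the 3 longest.

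Meis3 (chromosome 7, 16174012 to 16186510), the MEIS family's remaining member, held no region in its 12.5 kb. The site nearest to it, at -6.5 kb from its start, was called in the first 0h library alone with a fold of 6.01. All 6 constant regions of this window lay within 1 kb of an end of another of its 9 protein-coding genes. They included Napa, which takes part in vesicle fusion, the mTORC1 regulator Kptn, the exchanger gene Slc8a2, the RNA helicase gene Dhx34, Inafm1 and Ccdc9. The region 40 bp from Dhx34 (chromosome 7, 16221747 to 16222370) was the highest ranked of all 55, with folds of 12.0 and 13.5 (0h), 11.1 and 13.3 (6h), 11.8 and 15.3 (12h) and 11.5 and 14.4 (24h). In every time the second library had the higher fold there.

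A different site of the Meis3 window separated 0h from all later libraries. It lay inside C5ar2, a receptor gene for the complement fragment C5a, 64.5 kb from the Meis3 start (chromosome 7, 16239727 to 16240068). Its folds were 7.96 and 6.72 at 0h, and no library of 6h, 12h or 24h had a peak. It counted as lost at each later time, and 200 (0.611%) of all regions had this pattern. The neighbouring C5ar1, the other C5a receptor gene, had 1 site called in the second 6h and first 12h libraries (fold 6.94 and 7.55) and 1 called in the first 6h and first 12h libraries (fold 8.97 and 8.23). Peaks at the locus numbered 9 and 7 (0h), 7 and 7 (6h), 9 and 7 (12h) and 5 and 6 (24h) (share of times 0.462 of the sum of squares per 10000 peaks, one-sided exact permutation p = 0.429, adjusted p = 0.714).

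Pbx2 (chromosome 17, 34592259 to 34597400), a broadly expressed PBX gene, lies among 12 other protein-coding genes in its window. It was the nearest gene to 1 of the 14 regions, the weak site at its start. The 3 constant regions belonged to neighbours. They were a site inside the receptor gene Notch4, at -4.75 kb from the Pbx2 start (chromosome 17, 34587062 to 34587887), a site 303 bp from the acyltransferase gene Agpat1 (chromosome 17, 34603539 to 34604393), and a site 23 bp from Atf6b, a transcription factor of the unfolded protein response (chromosome 17, 34646939 to 34647626). The Notch4 site had folds of 11.8 and 8.4 (0h), 9.41 and 10.7 (6h), 11.6 and 9.42 (12h) and 8.64 and 9.42 (24h). Folds ran from 7.96 to 11.4 at Agpat1 and from 10.3 to 13.9 at Atf6b.

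Changed sites in the Pbx2 window were small. A region inside Tnxb, which encodes the matrix protein tenascin-X, was gained at 12h (chromosome 17, 34681133 to 34681520; fold 7.09 and 6.61) and called in the second 24h library (6.13). A region 476 bp from an end of Prrt1 (chromosome 17, 34632418 to 34632705) had folds of 6.42 and 6.34 at 0h, 6.42 in the second 6h library and 7.96 in the second 24h library. It was lost at 12h, and its exact 8-library pattern was shared by 5 (0.0153%) of all regions. Peaks at the locus numbered 6 and 6 (0h), 5 and 7 (6h), 9 and 6 (12h) and 4 and 5 (24h) (share of times 0.148 of the sum of squares per 10000 peaks, one-sided exact permutation p = 0.781, adjusted p = 0.976).

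**Figure D4:**
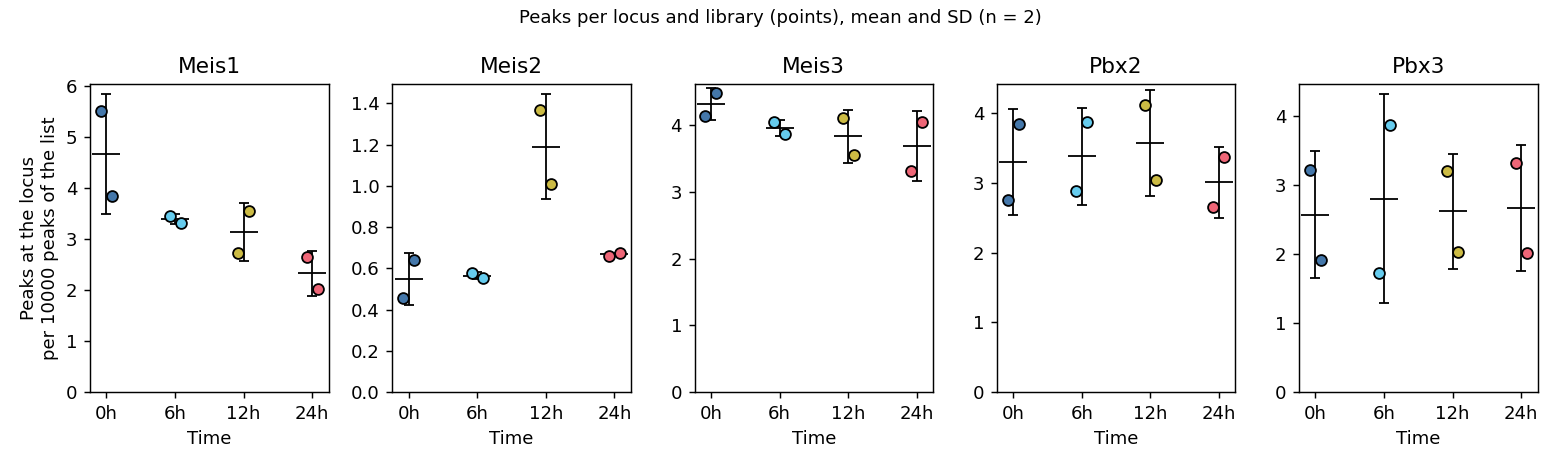
Peaks at each locus per 10000 peaks of the library's list, by time, with 1 point per library and the mean and SD of n = 2; the vertical scale starts at 0 and differs between panels. Meis1 goes from 4.68 ± 1.19 at 0h to 2.34 ± 0.441 at 24h and Meis2 is highest at 12h, while at Pbx2 and Pbx3 the points of a time lie as far apart as the times do.

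Over all 5 loci, 6 of the 55 regions were gained or lost at some time, 2 gained and 4 lost. Gained means a peak in both libraries of the later time and in neither 0h library, and lost is the reverse. With 2 libraries against 2, an exact test cannot go below p = 0.33, so the counts carry no p and are read beside the share of all regions called. At 6h, 0 regions were gained (background 1.85%) and 1 was lost (2.34%). At 12h, 2 were gained (4.03%) and 3 were lost (1.45%). At 24h, 0 were gained (1.12%) and 3 were lost (4.43%), 2 of the 3 inside Meis1. The 3 lost at 12h were the Meis1 site at 135 kb and those at C5ar2 and Prrt1, so 1 of the 28 regions nearest to a member was lost then. The counts are small, and their difference from the background shares was not tested. No difference is read from them.

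These counts rest on single libraries. Without the second 0h library the lost regions numbered 9 at 6h, 11 at 12h and 14 at 24h, where the background also rose, to 16.1%, 12.4% and 21.5%. Without the first 0h library they numbered 2, 4 and 5 of 48 (background 6.94%, 5.19% and 10.2%), and 5 were gained at 12h (13.7%) and 2 at 24h (5.77%). At 6h, 5 of 55 were gained without the first 6h library (background 7.52%) and 1 of 52 without the second (6.42%), and 4 were lost without the second (5.1%). At 12h, 6 of 50 were gained without the first 12h library (background 10.3%) and 10 of 51 without the second (13.5%), while 5 were lost without the first (3.82%). At 24h, 5 of 55 were lost without the first 24h library (background 7.29%) and 5 without the second (7.11%), and 1 was gained without the first (4.03%). The background rose in each of these cases, as it must when 1 library is enough for a call.

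Other genes of the pathway were counted by the same window. The list of 7 relatives holds PBX and TALE-class genes and the PBX-interacting protein gene Pbxip1. Their windows held 52 regions. A gained region was found at 1 of the 7 genes at 6h, 2 at 12h and 1 at 24h, and a lost region at 2, 1 and 3, beside 1.85%, 4.03% and 1.12% gained and 2.34%, 1.45% and 4.43% lost of all single regions. Pbxip1 had 1 region gained at each later time, and Pknox2, a homeodomain relative of MEIS, 1 lost at each. The corepressor genes Tgif1 and Tgif2 each had 1 lost at 24h, and Tgif2 also had 1 lost at 6h and 1 gained at 12h. The windows of the 10 partners and downstream genes held 100 regions, with a region in several windows counted for each. A gained region was found at 0 of the 10 at 6h, 5 at 12h and 3 at 24h, and a lost region at 2, 3 and 6, to be read beside the same shares. Hoxa7, Hoxa9 and Hoxa10, the HOX partners of MEIS1, lie in overlapping windows and hold the same 13 regions. Their 1 gained and 1 lost region at 12h, and likewise at 24h, are therefore counted for each. They were the 3 genes with a lost region at 12h and the 3 with a gained region at 24h. Flt3, a cytokine receptor gene downstream of MEIS1 and HOXA9, had 1 lost at 24h. The self-renewal factor gene Myb had 1 lost at 6h, 1 gained at 12h and 2 lost at 24h. Msi2 had 2 gained at 12h and 1 lost at 24h. Trib2, a MEIS1 target that degrades C/EBPα, Hlf and Hif1a had 0 gained and 0 lost regions at any time. A gene with more regions has more chances to be counted, no test of the lists was made, and nothing particular to them is read from these counts.

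The genes whose peak numbers were most like those of Meis1 were found by Pearson's r over the 8 libraries, in peaks per 10000 of the list, among 174 other genes nearest to at least 10 regions. They were Ahi1 (r = 0.92), St8sia1 (0.88), Elmo1 (0.88), Smyd3 (0.85) and Fmnl2 (0.8), and 31 of the 174 had r over 0.5. These values share the libraries and their depth and are given as a description. The other members were nearest to fewer than 10 regions (8 for Pbx3, 2 for Meis2, 1 each for Meis3 and Pbx2) and were not compared in this way.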

How the data were processed

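ATAC-seq was measured in 8 libraries of sorted leukaemia cells, 2 at each of 4 times, and groups and replicate numbers came from the sample titles. The submitters' processing notes name BWA, SAMtools, MACS2 and mm10. Versions, settings, read shifting and duplicate removal were not given in the sources used here. Each library has a peak list of its own. Per the deposited lists, each peak has a linear ratio (fold enrichment), a −log10 p-value, a −log10 q-value and a summit position, and the deposited score was not used. The lowest −log10 q was 2.00.

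Peaks of the 19 autosomes and both sex chromosomes were merged where they overlapped by at least 1 bp, after 0-based starts were changed to 1-based. A peak's percentile is its rank by fold in its own list. Whole-number pile-up and local background were worked back from fold and −log10 p (tolerance 0.001), which succeeded for 99.8% to 99.9% of a list. The lowest background divided by the smallest width stands in for depth, since read totals were not used here. Gene positions came from RefSeq GRCm38.p6 (21887 protein-coding genes, all 5 members matched), the assembly of mm10, with no exons. A region was assigned to the gene that holds its strongest summit, or else to the gene with the nearest end. With 2 libraries a time, precision is low.

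The number of peaks per locus was tested by an exact permutation of libraries, with Benjamini-Hochberg adjustment over 5 loci, after checks on simulated data. Alternatives tried were a −log10 q minimum of 5, equal list length (the 14826 strongest peaks by −log10 p), windows of 150 bp on each side of the summits, a locus window of 50 kb, regions nearest to the member, each library left out, a replicate block and unscaled counts. Named regions were those within 1 kb of a member's start (for Pbx3, of either end), the gained or lost ones, the 3 with the highest mean percentile per locus, those that part times in both libraries, and others chosen after their values were seen. The members, lists and motifs were chosen with earlier results of these data known, and some list members are not reported by name. Python 3.11.15, numpy 2.4.6, pandas 2.3.3 and scipy 1.17.1 were used.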

Additional observations from a re-analysis of the deposited data

How the results depend on the processing

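Of the 6 counts of gained and lost regions, the planned settings other than leaving out libraries moved 9 values by more than 1.5 times. Gained regions at 12h numbered 2 of 55, 1 of 40 with a 50 kb window and 1 of 28 with regions nearest to the member, and the smaller number of regions goes with these and the next counts under both settings, while those at 24h went from 0 to 1 at equal list length and to 1 with −log10 q of at least 5. Lost regions at 6h went from 1 to 2 at equal list length and to 2 with −log10 q of at least 5, and to 0 with a 50 kb window and to 0 with regions nearest to the member, which also took lost regions at 12h from 3 to 1. With each library left out in turn, gained regions ran from 0 to 5 at 6h, 2 to 10 at 12h and 0 to 2 at 24h, and lost regions from 1 to 9, 3 to 11 and 5 to 14, while the share of all regions gained reached 8.4%, 13.7% and 5.77% and the share lost 16.1%, 12.4% and 21.5%. The share of variation between times ran from 0.681 to 0.928 for Meis1 and from 0.865 to 0.97 for Meis2 with each library left out, and the adjusted p passed 0.05 in 1 of 70 alternatives of the 5 locus tests, for Meis2 without the second 0h library (0.897). For Meis1 the p ran from 0.019 to 0.314 over its alternatives and the adjusted p from 0.0952 to 0.786. No pairing by replicate number was seen in the peak calls: over 6 pairs of times the differences between replicates correlated across regions at -0.013 to 0.005. Whether libraries of the same number share a mouse or a batch cannot be read from these calls. With the replicate block, the share was 0.779 for Meis1 (exact permutation p = 0.125), 0.88 for Meis2, 0.469 for Meis3, 0.178 for Pbx2 and 0.0142 for Pbx3. Its 24 arrangements allow no p under 0.042, so after adjustment over 5 loci a single locus could not pass. That no call changed there carries no weight. At equal list length the Meis2 share was 1.0, the highest possible, yet tied counts gave an exact permutation p of 0.143. Both settings are among the 70 alternatives. In the second 0h library, the shallowest, a missing peak is the weakest evidence.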

Other observations

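The regions called in a single library were unevenly spread over the libraries. Of the 20 such regions at the 5 loci, 7 belonged to the first 0h library, 1 to the second, 0 and 3 to the 6h libraries, 5 and 4 to the 12h libraries and 0 to either 24h library. Of the 9125 such regions in the series, 29.1% and 8.82% belonged to the 0h libraries, 8.01% and 10.4% to those of 6h, 21.7% and 14.0% to those of 12h, and 3.99% and 4.01% to those of 24h. The first 0h library had the highest background, 2.67 tags per kb, and the 24h lists were the shortest.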
